A study of Mus musculus with 4 samples.

Results

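The 7 genes described here encode DNA-binding regulators of the olfactory sensory neuron (OSN) lineage and a cofactor: the 4 early B-cell factors Ebf1, Ebf2, Ebf3 and Ebf4, the LIM-homeodomain factor Lhx2, its binding partner Ldb1, and the homeodomain factor Emx2. They were taken by name from the 55511 genes of the deposited table, and all 7 were found. The cells came from the main olfactory epithelium, the sensory lining of the nasal cavity, of 4 male C57BL/6 mice (substrain C57BL/6J in the study's methods) that were 8 weeks old and received no treatment named in the labels. One 3′ droplet library was made per mouse, so the mice are the replicates (n = 4) and cells of a mouse are not. The libraries held 23157467 to 32382702 UMIs (unique molecular identifiers, which count each captured transcript once) from 4746 to 6003 cell barcodes. Levels are given as UMIs per 10000 UMIs of all cells of a group in a mouse, with the mean ± SD over mice.

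Ebf proteins are helix-loop-helix factors, first described in B cells and in olfactory neurons, that bind a palindromic DNA site found in front of many OSN genes. Lhx2 is required for OSN differentiation, and Ebf and Lhx2 bind next to each other in enhancers that act on odorant receptor genes. Ldb1 has no DNA-binding domain of its own. It binds the LIM domains of proteins such as Lhx2 and bridges distant DNA elements. Emx2 is known to be needed for the normal expression of many odorant receptor genes.

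The letters that these factors are known to favour were searched in the 250 bases before each transcript start in the RefSeq promoter table for GRCm38. The table lists several starts for some genes, and a gene was counted where any of them held the letters. The Ebf core was written CCCNNGGG and the homeodomain core TAATTA. Both read the same on the 2 strands and they cannot overlap each other. CCCNNGGG was present in 13.4% of 27025 genes and in 2.75% of 944 odorant receptor genes. TAATTA was present in 5.65% of all genes and in 18.1% of the receptor genes, in 14.7% of 109 class I and 18.6% of 835 class II genes. The windows of receptor genes had a median A+T content of 66%, against 47.6% for all genes, and the part of this in the counts was not tested. Of the 7 regulators 6 matched the table. Ebf2 did not. CCCNNGGG occurred before the start of Ebf3, before an internal start of Ldb1, and before that of Cnga2, the olfactory channel subunit that is a classical Ebf target, and these are shown first. Of the 42 receptor populations compared below, 31 had a window for their receptor gene, of which 7 held TAATTA and 2 CCCNNGGG. The receptor genes shown last are the 3 with a match among the populations named below. The other populations named had no match or no entry in the table. The motif is in capitals, with 12 bases on each side.

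Cnga2: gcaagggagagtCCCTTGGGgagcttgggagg
Ebf3: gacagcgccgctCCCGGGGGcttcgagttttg
Ldb1: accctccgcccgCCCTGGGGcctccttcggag
Olfr523: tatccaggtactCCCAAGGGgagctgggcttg
Olfr731: cggtggattagaTAATTActaagtaatgtt
Olfr1297: aaatgtcatccaTAATTAagttaaattttt

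The Cnga2 window lies at chrX:71991771-71991802 on the plus strand, and its motif begins 66 bases before the start. The Ebf3 and Ldb1 windows lie at chr7:137314447-137314478 and chr19:46039649-46039680, both on the minus strand. The gene Ldb1 spans chr19:46031570-46045214 in the annotation, so that its window lies within the gene, before a start other than the outermost. The Olfr523 window is at chr7:140175968-140175999 on the plus strand, and those of Olfr731 and Olfr1297 are at chr14:50238974-50239003 and chr2:111622209-111622238 on the minus strand. A match is a description of these letters and not a measured binding site.

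The lineage was followed along the deposited types GBC (globose basal cell, the dividing progenitor), INP (immediate neuronal precursor), iOSN1 and iOSN2 (immature OSN) and mOSN (mature OSN), with 202, 284, 866, 1006 and 10519 cells. Sets of marker genes mostly followed the names. The summed level of 5 GBC markers was 25.2 in GBCs and 6.71 in INPs, that of 3 INP markers was 23.9 in GBCs, 68.9 in INPs and 18.2 in iOSN1 cells, and that of 5 mOSN markers was 36.6 in iOSN1, 193 in iOSN2 and 263 in mOSNs. Among 4 iOSN markers, Gap43 and Dcx were higher in iOSN1 (32.3 and 4.07) than in INPs (2.25 and 0.909). Stmn2 and Gng8 overlapped between iOSN1 (41.1 and 12.3) and INPs (40.9 and 12.3). The summed level of the 4 was highest in iOSN1, at 89.7 against 28.9 in iOSN2. It stood already at 56.4 in INPs against 2.45 in GBCs, the step in which all 7 genes rose. Sets of 4 microvillar and 3 stromal markers were at 1.37 to 5.05 and 0.125 to 2.02 in the GBCs of the 4 mice, and at 0 to 0.242 and 0.0182 to 0.0545 in INPs. The part of these sets in that step was not tested. The authors drew these types, and the OSN clusters below, from expression in the same cells. The p-values of stage steps and clusters therefore describe agreement over the 4 mice and are not independent of the clustering.

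All 7 genes rose from GBCs into INPs. For Lhx2 and Ldb1 the mean in GBCs was above those of iOSN2 and mOSN, and for the other 5 genes GBCs had the lowest mean of the lineage. Thereafter they parted. Lhx2 peaked sharply in INPs, Ldb1, Emx2, Ebf2 and Ebf3 peaked there and then declined, Ebf1 had its 2 highest levels in INPs and iOSN1 cells, and Ebf4 came late and was highest in mature neurons.

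**Figure D1:**
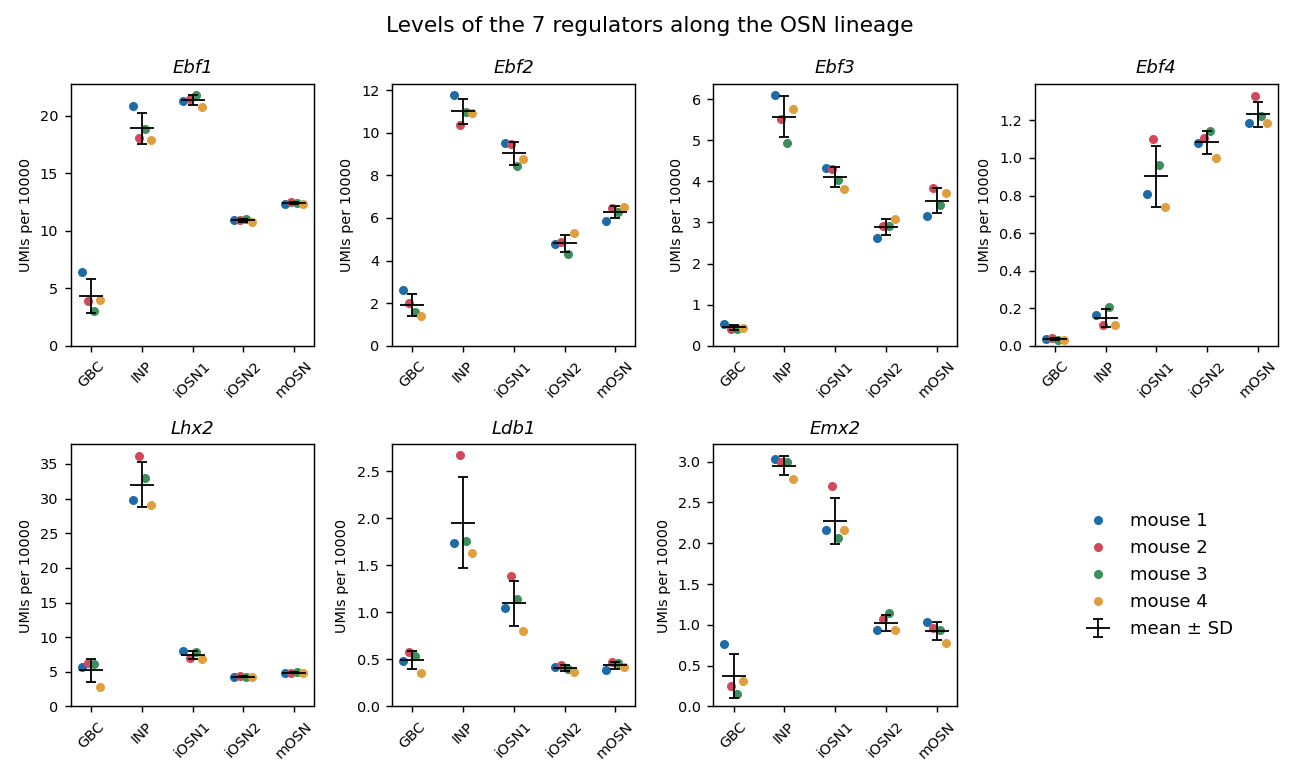
Levels of the 7 genes along the OSN lineage, in UMIs per 10000 on the vertical axis of each panel, by deposited stage on the horizontal axis. Coloured points are the 4 mice, and the black bar and whiskers are their mean ± SD. Lhx2 in INPs lay between 29.1 and 36.2 in the 4 mice, and Ebf4 rose from 0.0355 in GBCs to 1.23 in mOSNs.

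Ebf1 had levels of 6.41, 3.85, 3.02 and 3.99 in the GBCs of mice 1 to 4. In INPs the levels were 20.9, 18.1, 18.8 and 17.9, and in iOSN1 cells 21.3, 21.5, 21.9 and 20.8. They then dropped to 10.95, 10.96, 11 and 10.8 in iOSN2 cells and were 12.4, 12.5, 12.5 and 12.3 in mOSNs. The ranges of INP and iOSN1 overlapped and those of the other neighbouring levels did not. The SD over mice was 0.112 in iOSN2 and 0.0852 in mOSNs, so the small step between them exceeded the spread of these levels.

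Ebf2 had levels of 1.92 ± 0.536 in GBCs, 11 ± 0.588 in INPs, 9.04 ± 0.537 in iOSN1, 4.81 ± 0.405 in iOSN2 and 6.28 ± 0.298 in mOSNs (SD, n = 4). Ebf3 followed the same order of stages, with 0.448 ± 0.0542, 5.57 ± 0.492, 4.11 ± 0.247, 2.89 ± 0.193 and 3.53 ± 0.308. Both genes had their highest level in INPs, a low point in iOSN2 and a partial return in mOSNs. For Ebf3 the mice of mOSN and iOSN1 overlapped, and the other neighbours in its order did not.

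Ebf4, the family member with the latest onset, had levels of 0.0377, 0.0414, 0.0318 and 0.0312 in GBCs of mice 1 to 4, which rest on 8 UMIs in all. In INPs they were 0.163, 0.109, 0.207 and 0.109, on 35 UMIs. They reached 0.810, 1.10, 0.961 and 0.737 in iOSN1, 1.08, 1.11, 1.15 and 1.00 in iOSN2, and 1.19, 1.33, 1.22 and 1.19 in mOSNs. In GBCs the gene was at the level of blood cells, which should not express it (0.0480 ± 0.0246, on 9 UMIs). The fold of the first step can therefore not be taken as a fold of expression, and the source of these UMIs was not tested.

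Lhx2 had levels of 5.72, 6.21, 6.17 and 2.78 in the GBCs of mice 1 to 4, so that mouse 4 stood apart. In INPs they were 29.8, 36.2, 32.9 and 29.1, the highest for this gene in any type. They fell to 8.01, 6.99, 7.79 and 6.91 in iOSN1, and were 4.22, 4.45, 4.21 and 4.31 in iOSN2 and 4.86, 4.90, 4.97 and 4.82 in mOSNs. No mouse of another stage came near the INP level, while GBC and mOSN overlapped.

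Ldb1 had levels of 0.490 ± 0.0966 in GBCs, 1.95 ± 0.482 in INPs, 1.10 ± 0.240 in iOSN1, 0.409 ± 0.0346 in iOSN2 and 0.436 ± 0.0363 in mOSNs. Its 3 lowest stages, GBC, iOSN2 and mOSN, overlapped as neighbours in the order. The spread in INPs came largely from mouse 2, with 2.67 against 1.64 to 1.76 in the other mice. Emx2 had 0.371 ± 0.269, 2.95 ± 0.113, 2.27 ± 0.286, 1.02 ± 0.101 and 0.930 ± 0.109 in the same 5 stages, and iOSN2 and mOSN overlapped. Emx2os, an antisense gene whose 5′ part overlaps that of Emx2 on chromosome 19, was counted separately and was between 0.0707 and 0.306 in these stages.

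Each step was tested on the summed counts with the mouse as a block (edgeR quasi-likelihood test, Benjamini-Hochberg adjusted over all 11751 genes tested). All 7 members passed the filter on low counts in this fit. Log2 changes are from the model, with TMM scaling. They differ from ratios of the mean levels above, by amounts that vary with gene and step. For Emx2 from GBC to INP the model gave 5.86-fold, beside mean levels of 0.371 and 2.95. From GBC to INP all 7 rose, where 19.6% of all genes were called higher and 25.9% lower. The increase was 3.51 ± 0.13 log2 units for Ebf3 (SE, edgeR adjusted p = 2.9e-22), 2.59 ± 0.12 for Lhx2 (adjusted p = 4.9e-20), 2.55 ± 0.18 for Emx2, 2.42 ± 0.12 for Ebf2, 1.99 ± 0.11 for Ebf1 and 1.89 ± 0.15 for Ldb1. For Ebf4 the model gave 2.06 ± 0.45, which is not a fold of expression, since its 8 UMIs in GBCs were at the level of blood cells. Emx2 in GBCs was 0.764 in mouse 1 and 0.159 to 0.312 in the others, and without mouse 1 its increase was 3.498. Ebf3 in GBCs was 1.80 times its level in blood cells (0.249 ± 0.102), with no overlap, so part of its GBC level may be background and its fold is less certain for that. The median over the 7 was 2.42 and over all genes -0.06. With each cell thinned to 3000 UMIs the Ebf4 step no longer passed (edgeR adjusted p = 0.067).

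From INP to iOSN1, 5 of the 7 fell and 1 rose, beside 20.6% of all genes lower and 25.7% higher. Lhx2 fell by 2.16 ± 0.10 log2 units, to 22.3% of its INP level on the model's scale (edgeR adjusted p = 2.4e-19). Ldb1 fell by 0.85 ± 0.11, Ebf3 by 0.52 ± 0.08, Emx2 by 0.46 ± 0.12 and Ebf2 by 0.37 ± 0.09. Ebf4 moved the other way, by 2.41 ± 0.19 (adjusted p = 2.9e-13). Ebf1 had a log2 change of 0.11 ± 0.09 and did not pass (adjusted p = 0.37), but passed with no filter on low counts (0.19, edgeR adjusted p = 0.041).

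From iOSN1 to iOSN2, 6 of the 7 fell and Ebf4 rose, beside 23.4% of genes lower and 29.1% higher. Ldb1 fell by 1.22 ± 0.11 log2 units, Emx2 by 0.96 ± 0.11, Ebf1 by 0.78 ± 0.09, Ebf2 by 0.72 ± 0.08, Lhx2 by 0.60 ± 0.10 and Ebf3 by 0.33 ± 0.07. Ebf4 rose by 0.47 ± 0.09, though its levels in the mice overlapped between iOSN1 and iOSN2. From iOSN2 to mOSN the 4 Ebf genes rose and none of the 7 fell, beside 21.3% of genes higher and 19.5% lower. The increases were 0.44 ± 0.08 for Ebf2 (edgeR adjusted p = 3.6e-05), 0.34 ± 0.07 for Ebf3 (adjusted p = 8.1e-05), 0.24 ± 0.09 for Ebf1 (adjusted p = 0.028) and 0.23 ± 0.07 for Ebf4 (adjusted p = 0.0087). The values for Lhx2, Ldb1 and Emx2 were 0.24 ± 0.10, 0.14 ± 0.10 and -0.08 ± 0.10, and these did not pass (Lhx2 adjusted p = 0.050201). The calls of Ebf1 and Ebf4 in this step were lost in DESeq2 (adjusted p = 0.15 and 0.17) and without mouse 2 (edgeR adjusted p = 0.11 and 0.089), which left 2 of the 7 called in each, and in cells with at least 2000 genes (adjusted p = 0.071 and 0.17). That of Ebf4 was also lost after thinning (adjusted p = 0.33). That of Ebf1 was also lost without mouse 4 and without the mouse block (adjusted p = 0.073 and 0.13) and with DESeq2's size factors in edgeR (adjusted p = 0.061), while Lhx2 passed without mouse 4 and with no filter on low counts (adjusted p = 0.021 and 0.00053). Over all genes 3938 of 11751 were called in this step in DESeq2 and 3969 of 11825 without mouse 2.

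**Figure D2:**
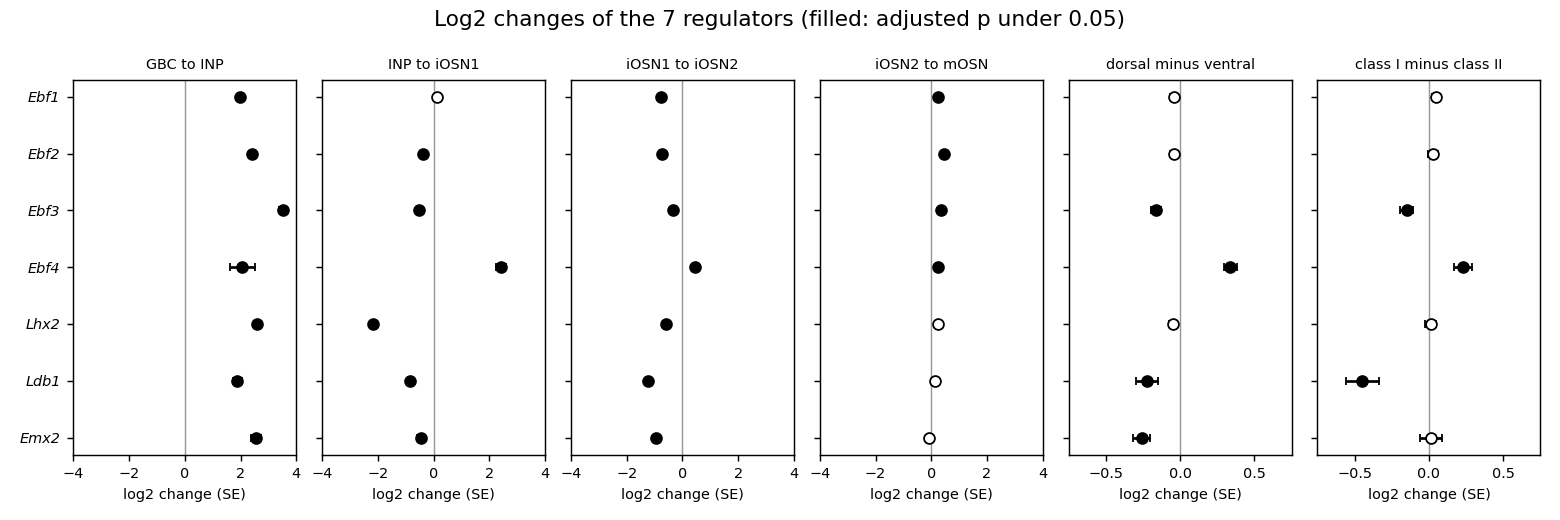
Log2 changes of the 7 genes from the edgeR fits, with the standard error as whiskers (hidden where smaller than the symbol), for the 4 steps of the lineage and for 2 comparisons within mature OSNs. Filled symbols had an adjusted p under 0.05. The axis of the last 2 panels is narrower, and Ebf4 lies to the right of 0 in all 6 panels.

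The make-up of the Ebf family changed along the lineage. The mean shares of Ebf1, Ebf3 and Ebf4 did not run one way. Ebf1 gave 63.8% ± 4.14 of the Ebf UMIs in GBCs, 53.1% ± 1.01 in INPs, 60.3% ± 1.39 in iOSN1, 55.5% ± 1.54 in iOSN2 and 53.0% ± 1.38 in mOSNs. Ebf3 gave 6.91% ± 1.15, 15.6% ± 1.10, 11.6% ± 0.398, 14.6% ± 0.796 and 15.0% ± 0.890 in the same stages. Ebf4 gave 0.551% ± 0.118 in GBCs, 0.412% ± 0.130 in INPs, 2.54% ± 0.407 in iOSN1, 5.51% ± 0.390 in iOSN2 and 5.25% ± 0.206 in mOSNs. Ebf2 stayed between 24.4% and 30.9% in all 5 stages. These shares are of UMIs, and genes may differ in how well they are captured.

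Most neuronal cells held transcripts of several Ebf genes at once. With every cell thinned to 3000 UMIs, which left out 17 of 202 GBCs and 1572 of 10519 mOSNs, all INPs retained had a UMI of Lhx2 and of at least 1 Ebf gene. In GBCs 49.8% ± 10.7 of cells had a UMI of none of Ebf1 to Ebf4 nor of Lhx2. At least 2 Ebf genes were seen in 6.27% ± 2.84 of blood cells, as background, and in 22.5% ± 6.95 of GBCs, 99.3% ± 0.880 of INPs, 94.5% ± 1.89 of iOSN1, 85.5% ± 3.62 of iOSN2 and 92.9% ± 1.62 of mOSNs. At least 1 Ebf gene together with Lhx2 was seen in 24.7% ± 6.95 of GBCs and 73.9% ± 1.38 of mOSNs, against 4.23% ± 2.18 of blood cells. A Lhx2 UMI was found in 24.7% of GBCs and, as background, in 4.44% ± 2.00 of blood cells at the same depth. Without thinning it was found in 28.2% of GBCs and 6.97% of blood cells, whose median depths were 9945.5 and 5332 UMIs. Ebf1 was found in 44.5% ± 11 of thinned GBCs, 97.0% ± 4.10 of INPs and 95.7% ± 0.122 of mOSNs, against 7.82% ± 1.29 of blood cells. Without thinning these values were 51.9%, 98.5%, 98.1% and 8.34%.

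Outside the lineage most of the genes were low, except for Ebf1 in immune cells and for Ldb1, which was low in mature neurons too. In the horizontal basal cells (HBC1, HBC2), sustentacular cells (Sus), microvillar cells (Mv1, Mv2) and blood cells, no mean of the 7 genes exceeded 1.53, which was that of Ebf1 in HBC2. Ebf1 in Mv1 was 3.71 in mouse 2 and 0.249 to 0.830 in the other mice. The summed iOSN markers in Mv1 were 8.69 in mouse 2 and 0 to 0.237 in the others. Ldb1 was 0.572 ± 0.227 in HBC1 and 0.453 ± 0.0442 in HBC2, beside 0.436 ± 0.0363 in mOSNs, and the ranges overlapped. Emx2 was 0.439 ± 0.127 in HBC1, within its range in GBCs. Ebf4 was 0.142 ± 0.0983 in HBC1 and 0.134 ± 0.0284 in immune cells, beside 0.147 ± 0.0476 in INPs. Ebf1 in immune cells was 3.81, 10.4, 5.38 and 6.96 in mice 1 to 4. It made up 83.4% ± 3.92 of Ebf UMIs there. A set of 4 B-cell markers, Cd79a, Cd79b, Ms4a1 and Pax5, had a summed level of 7.91 to 16.5 in immune cells and of at most 0.456 in any stage of the OSN lineage in any mouse.

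Ebf1 is a textbook regulator of B cells. In the 919 immune cells with a UMI of Cd79a or Cd79b, components of the B-cell receptor, Ebf1 was 12.2, 21.9, 13.7 and 20.5 in the 4 mice, and in the 1472 immune cells with neither it was 0.714, 1.34, 1.11 and 1.16. Every mouse was higher in the former. Ebf2 did not separate these cells (0.626 ± 0.329 and 0.7002 ± 0.103), nor did Ebf3 (0.403 ± 0.240 and 0.436 ± 0.0957). This split was made after the values were seen and was not tested.

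**Figure D3:**
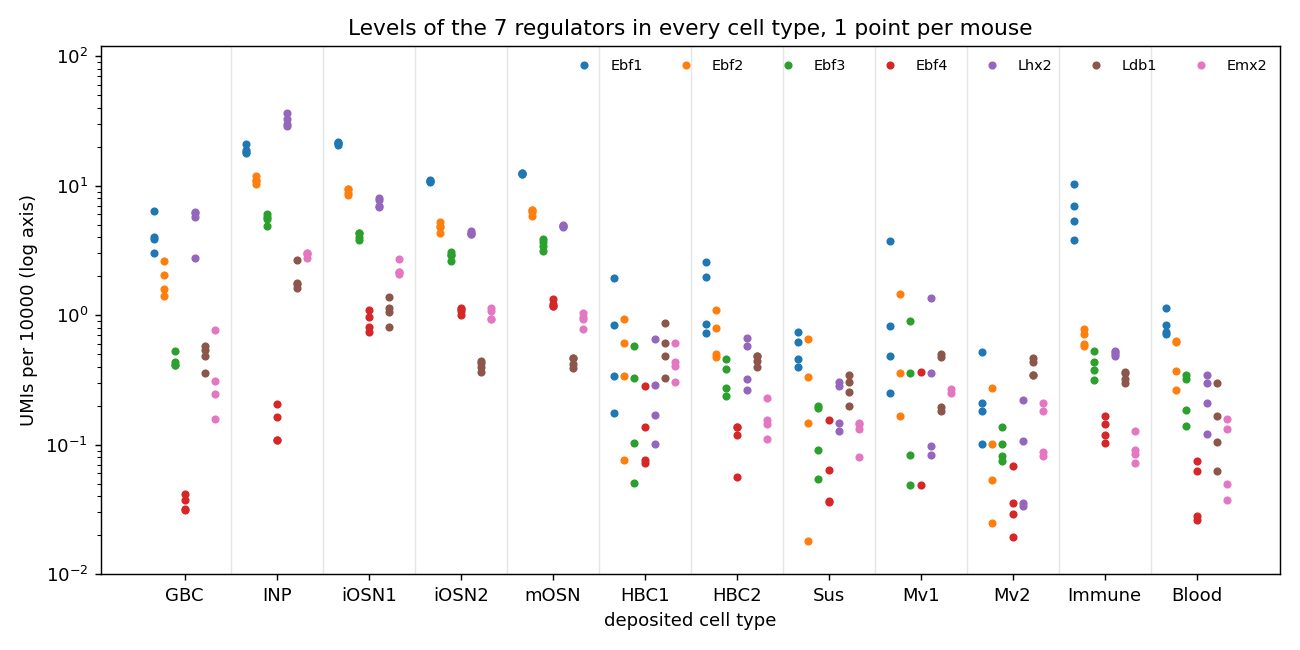
Level of each gene in 12 cell types, in UMIs per 10000 on a log axis, with 1 point per mouse and 1 colour per gene. Immune and blood cells were joined from labels of the authors' unfiltered clustering, and the other types are as deposited. Values of 0, which occur in Mv1, cannot be drawn. Outside the first 5 types Ebf1 in immune cells stands out, at 3.81 to 10.4, with Ebf1 in Mv1 of mouse 2 next, at 3.71.

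Mature OSNs were then compared among the 10 deposited clusters drawn without receptor genes. These are named for the dorsal (D.) or ventral (V.) side of the epithelium and for Calb2, Cd36, Cd55 or Dlg2. Of the 7 genes 6 differed among clusters, where 47.8% of 8684 genes tested did. The F statistic was 55.7 for Ebf1 (edgeR adjusted p = 2.0e-43), 16.1 for Emx2 (adjusted p = 1.5e-17), 15.3 for Lhx2 (adjusted p = 8.3e-17), 8.38 for Ebf4, 7.76 for Ebf3 and 6.88 for Ebf2. Ldb1 did not pass (F = 2.20, adjusted p = 0.052), but passed without mouse 4 and with no filter (edgeR adjusted p = 0.015 and 0.013).

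Ebf1 was highest in the 2 Cd55+ clusters. It was 19.0, 16.8, 18.7 and 18.5 in Cd55+ V. and 17.4, 16.2, 19.3 and 17.4 in Cd55+ D., against 9.72 ± 0.623 in Cd36+ D., its lowest cluster. The lowest mouse of either Cd55+ cluster was above the highest mouse of each other cluster, where means ran up to 12.9 (Dlg2+ V.). The same 2 clusters led for Emx2, at 1.70 ± 0.146 (Cd55+ V.) and 1.41 ± 0.257 (Cd55+ D.), and the lowest Emx2 was 0.584 ± 0.150 in Dlg2+ D. They also led for Ebf2 (7.02 ± 0.310 and 6.98 ± 0.753) and Ebf3 (4.04 ± 0.532 and 3.802 ± 0.503), whose ranges overlapped those of other clusters. Over the 10 clusters the Pearson correlation of Ebf1 with Emx2 on log2 levels was 0.834 to 0.862 within each of the mice, as a description of clusters from shared libraries, and for Ebf1 with Lhx2 it was 0.135 to 0.276. The part of the 2 Cd55+ clusters, highest for both Ebf1 and Emx2, in the former value was not tested.

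Lhx2 had another order. It was 5.93 ± 0.371 in Calb2+ V., 5.42 ± 0.337 in Calb2+ D. and 5.37 ± 0.370 in Cd55+ D., with overlapping ranges. It was lowest in the 2 Dlg2+ clusters, with 3.68 ± 0.165 (D.) and 3.92 ± 0.300 (V.). Every mouse of Calb2+ V. lay above every mouse of both Dlg2+ clusters, which were picked as the ends of this order. Ebf4 was highest in Calb2+ D. (1.60 ± 0.166) and lowest in Dlg2+ V. (1.01 ± 0.0770). Its range among clusters was 1.58-fold, against 1.88-fold for Ebf1, 1.61-fold for Lhx2 and 2.91-fold for Emx2.

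**Figure D4:**
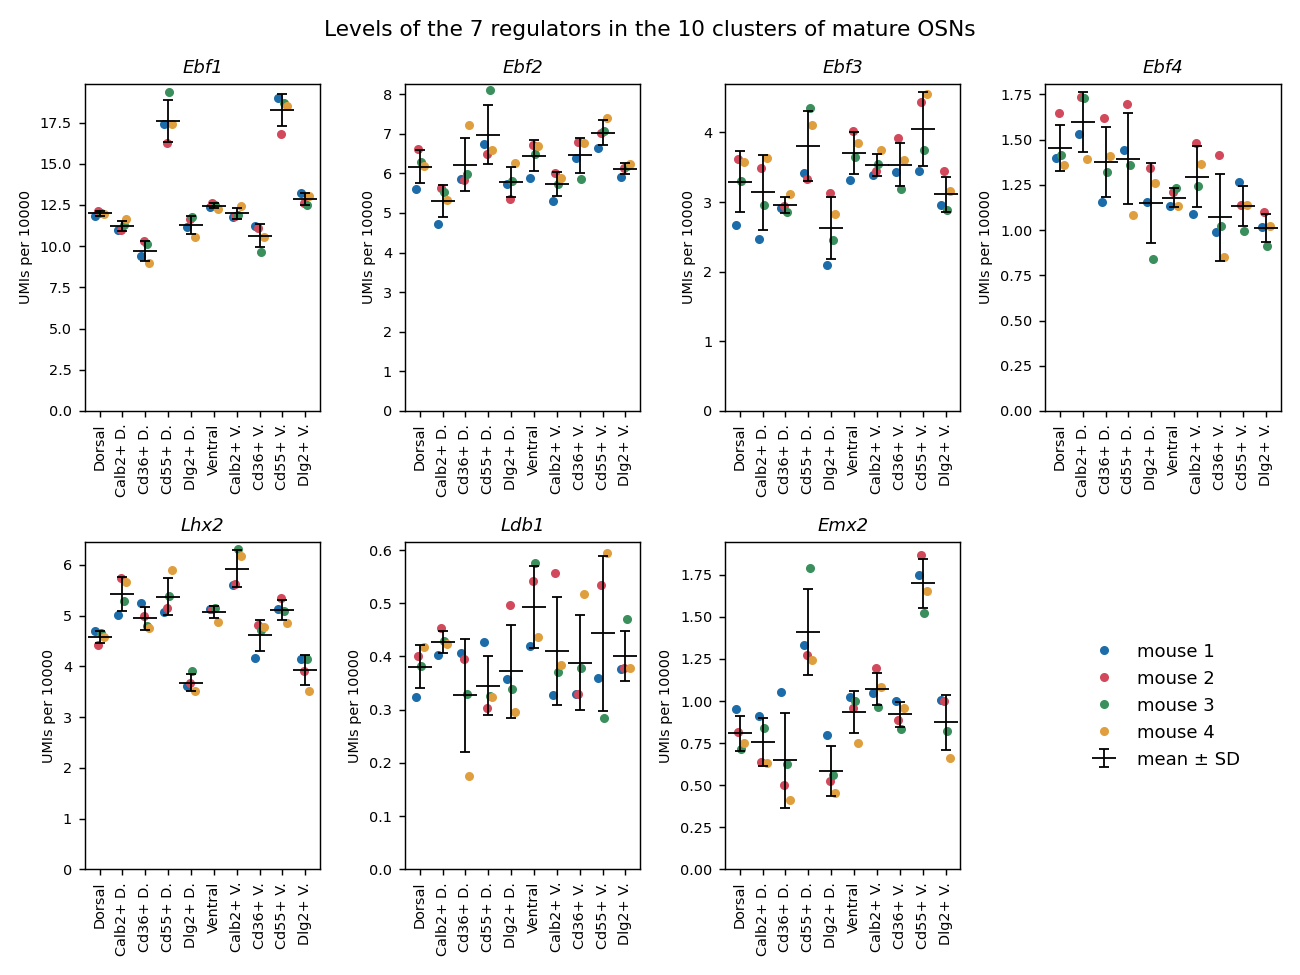
Levels of the 7 genes in the 10 clusters of mature OSNs, in UMIs per 10000, with 1 coloured point per mouse and the mean ± SD in black. The 5 dorsal clusters stand on the left and the 5 ventral ones on the right of each panel. Ebf1 and Emx2 have their 2 highest means in the Cd55+ clusters, 17.6 and 18.3 for Ebf1.

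With all dorsal and all ventral clusters summed, 4 of the 7 differed, 1 higher and 3 lower in dorsal neurons, beside 14.4% and 14.0% of the 11944 genes tested. Ebf4 was 1.37, 1.62, 1.34 and 1.33 in dorsal and 1.11, 1.23, 1.16 and 1.12 in ventral neurons of mice 1 to 4, higher dorsally in each and with no overlap. Its log2 difference was 0.34 ± 0.05 (SE, edgeR adjusted p = 1.6e-09). In all 5 matched pairs of clusters (the plain ones, Calb2+, Cd36+, Cd55+ and Dlg2+) its dorsal mean was higher, by 1.14-fold to 1.28-fold, and at least 3 of the 4 mice had this direction in each pair.

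Emx2 was lower in dorsal neurons, at 0.940, 0.740, 0.754 and 0.689 against 1.07, 1.03, 0.993 and 0.824. It was lower in each mouse, though the ranges overlapped, and the log2 difference was -0.26 ± 0.06 (edgeR adjusted p = 8.7e-05). Ebf3 differed by -0.16 ± 0.03 (adjusted p = 3.4e-05) and Ldb1 by -0.22 ± 0.08 (adjusted p = 0.017). In every matched pair of clusters the dorsal means of Emx2 and Ebf3 were the lower. The dorsal mean of Ldb1 was higher in the Calb2+ pair (0.427 and 0.410), in 3 of the 4 mice. In the Cd36+ and Cd55+ pairs Ldb1 was higher dorsally in 2 of the 4 mice. Without the mouse block Emx2, Ebf3 and Ldb1 no longer passed (edgeR adjusted p = 0.14, 0.25 and 0.12), and 1 of the 7 was called, beside 1550 of 11944 genes. The Ldb1 call was also lost without mouse 2 or mouse 3 (adjusted p = 0.055 and 0.18), in DESeq2 (adjusted p = 0.29) and after thinning (edgeR adjusted p = 0.18). Ebf1, Ebf2 and Lhx2 had log2 differences of -0.04 ± 0.02, -0.04 ± 0.03 and -0.05 ± 0.03 and did not pass. The levels of Ebf1 were 11.6 to 12.1 in dorsal and 12.5 to 12.8 in ventral neurons, and those of Lhx2 4.61 to 4.67 and 4.83 to 5.07, with no overlap in either. With no filter on low counts both passed (edgeR adjusted p = 0.0092 and 0.048), and 6 of the 7 were called, beside 3156 of 24143 genes.

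The class of the expressed receptor gives a grouping that uses no value of these genes. Class I receptor genes lie in 1 cluster on chromosome 7, and the class I neurons numbered 1071 and the class II neurons 8641. Of the 7 genes 1 was higher and 2 were lower in class I neurons, where 9.65% and 8.91% of 11835 genes were. Ldb1 was 0.310, 0.328, 0.309 and 0.314 in class I against 0.401, 0.493, 0.485 and 0.429 in class II neurons, with no overlap and a log2 difference of -0.45 ± 0.11 (SE, edgeR adjusted p = 0.00088). Ebf4 was 1.36 ± 0.180 and 1.21 ± 0.0597 (log2 difference 0.23 ± 0.06, adjusted p = 0.0026), and Ebf3 3.09 ± 0.424 and 3.54 ± 0.304 (-0.15 ± 0.04, adjusted p = 0.0039). In both the ranges overlapped.

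Class and side went together, with 90.2% ± 2.38 of class I and 20.2% ± 2.34 of class II neurons in dorsal clusters. Against class II neurons of dorsal clusters alone, the log2 difference was -0.04 for Ebf4 (edgeR adjusted p = 0.87), -0.04 for Ebf3 (adjusted p = 0.78) and -0.37 for Ldb1 (adjusted p = 0.10), and none of these passed. Emx2, whose overall difference was 0.01 ± 0.07, was then higher in class I by 0.31 (adjusted p = 0.025) and was the 1 member called, beside 494 of 9519 genes. DESeq2 called 0 of the 7 (Ldb1 adjusted p = 0.057) against 3 by edgeR, with 3 at an unadjusted p under 0.05, and called 1018 genes in all. Without mouse 1 and without the mouse block only Ldb1 was called, beside 1601 of 11819 and 1081 of 11835 genes. The Ebf4 call was also lost without mouse 2 and after thinning (edgeR adjusted p = 0.060 and 0.065).

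Mature neurons were also grouped by their receptor, and the 42 receptor populations for which every mouse gave 5 or more neurons (1782 neurons in all) were compared. Of the 7 genes 6 were tested and 5 differed among populations, beside 39.2% of the 2191 genes tested. Ldb1 did not pass the filter on low counts, with means of 0.0549 to 0.790 UMIs per 10000 over populations. The filter keeps highly counted genes, so these 6 are not all members. Ebf1 gave F = 9.26 (edgeR adjusted p = 3.5e-27), Emx2 4.13 (adjusted p = 6.9e-11), Lhx2 2.53 (adjusted p = 5.0e-05), Ebf2 2.15 (adjusted p = 0.0011) and Ebf4 1.96 (adjusted p = 0.0043). Ebf3 did not pass (F = 1.46, adjusted p = 0.10). The Ebf2 call was lost without mouse 3 (edgeR adjusted p = 0.067), with no filter (adjusted p = 0.22) and with populations of 3 or more neurons per mouse (adjusted p = 0.054), and the Ebf4 call without mouse 1 or mouse 2 (adjusted p = 0.14 and 0.12).

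Ebf1 spanned a 3.39-fold range of population means. In Olfr354 neurons it was 28.7, 18.5, 22.1 and 20.4 in mice 1 to 4, and in Olfr1507 neurons 6.84, 5.49, 8.00 and 6.13. The 2 did not overlap, but they were picked as the ends of the order on these same values. All 29 Olfr354 neurons with a cluster label and all 30 of Olfr827, the second highest at 20.2 ± 3.35, were in Cd55+ V. The third, Olfr295 at 17.8 ± 2.52, had most of its neurons (65.6%) in the plain Ventral cluster.

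The populations at the ends of the Ebf1 order also stood at the ends for Emx2. Emx2 was 2.32, 3.79, 1.82 and 0.862 in Olfr354 neurons and 0.207, 0.366, 0 and 0.302 in Olfr1507 neurons, the latter resting on 6 UMIs. Over all 42 populations the correlation of Ebf1 with Emx2 on log2 levels was 0.113 to 0.475 within the mice, a weak relation of sparse counts that share libraries. Olfr1507 neurons, lowest for both genes, were highest for Lhx2, with 9.75, 5.86, 8.00 and 7.44. Of those with a cluster label 92.9% were in Calb2+ V., the cluster with the highest mean Lhx2. The lowest for Lhx2 were Olfr1361 neurons, with 4.02, 3.14, 4.09 and 2.19. These did not overlap the Olfr1507 values, but both populations were picked as ends of the Lhx2 order.

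Ebf2 ran from 5.03 ± 1.19 in Olfr1297 neurons to 9.13 ± 2.25 in Olfr523 neurons, and next to the latter stood Olfr731 with 9.0 ± 0.521. The windows before the receptor genes of these populations are those printed at the start, since only named populations were printed. The other populations with TAATTA had Ebf2 means between 6.67 (Olfr1226) and 7.59 (Olfr820). Olfr536, the other one with CCCNNGGG, had 6.22. None of these stood at the ends of the Ebf2 order, and a relation of the letters to Ebf2 was not tested. Ebf4 ran from 0.516 ± 0.424 in Olfr140 to 2.41 ± 1.86 in Olfr446 neurons. In Olfr446 neurons mouse 2 had 5.14 and the other mice 1.03 to 2.01, on 22 UMIs in all.

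**Figure D5:**
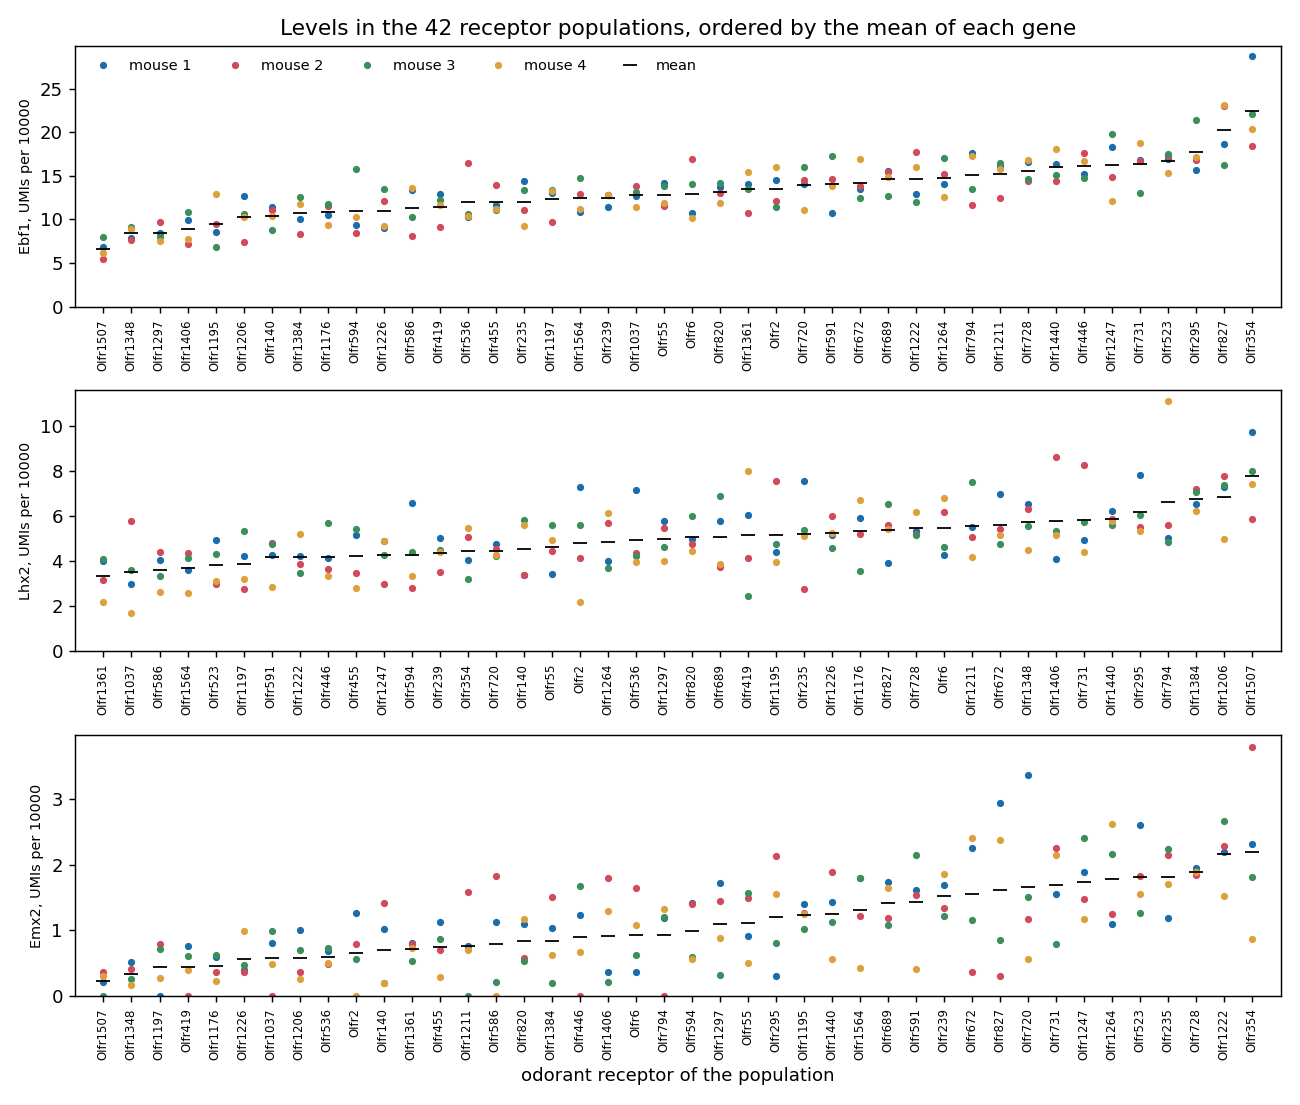
Levels of Ebf1, Lhx2 and Emx2 in the 42 receptor populations, in UMIs per 10000, with 1 coloured point per mouse and a black bar for the mean. Populations are ordered by the mean of each gene separately. Means of Ebf1 run from 6.62 (Olfr1507) to 22.4 (Olfr354), and Olfr1507 is lowest for Ebf1 and Emx2 and highest for Lhx2.

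The other genes of these pathways were taken from lists of related genes. Of 20 LIM-complex genes 8 were tested along the lineage. Among these, 4 fell and 2 rose from INP to iOSN1 (20.6% and 25.7% of all genes), with a median log2 change of -0.28 beside 0.06 over all genes. Isl1, a LIM-homeodomain gene, fell from 14 UMIs in all INPs to 3 in the more numerous iOSN1 cells, counts too low for a fold. Lmo1, a LIM-only gene, fell by 2.10 ± 0.26 log2 units. Ssbp4, of the family of single-stranded-DNA-binding partners of Ldb1, rose by 1.91 ± 0.21, and the LIM-only gene Lmo4 by 1.18 ± 0.15. From GBC to INP 2 rose and 2 fell, beside 19.6% and 25.9% of all genes. From iOSN1 to iOSN2 1 rose and 5 fell (29.1% and 23.4% of all genes), and from iOSN2 to mOSN 1 rose and 2 fell (21.3% and 19.5%).

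The zinc-finger partner of Ebf proteins Zfp423 rose into INPs and fell from iOSN1 to iOSN2, and Zfp521 did not pass the filter on low counts. Of 8 other homeodomain genes of the nose 7 were tested, and from INP to iOSN1 4 fell and none rose, beside 20.6% and 25.7% of all genes. Otx2 fell from 130 UMIs in all INPs to 11 in the more numerous iOSN1 cells (edgeR adjusted p = 7.6e-14), Dlx3 from 24 to 6 and Six4 from 61 to 1, and no fold is given on such counts. Of these 7, 2 rose and 3 fell from GBC to INP (19.6% and 25.9% of all genes), 1 rose and 2 fell from iOSN1 to iOSN2 (29.1% and 23.4%), and 2 fell from iOSN2 to mOSN (19.5%). Lhx2 and Emx2 fell in the same step as Otx2 and Dlx3 and were still present in mOSNs, at 19.99 and 9.88 times their level in blood cells.

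Genes with a known Ebf site in front, Omp, Adcy3, Cnga2 and Gnal, which serve odour signalling in mature neurons, all rose in each of the 3 steps from INP on, where 25.7%, 29.1% and 21.3% of all genes rose. The authors identified mature OSNs by genes that include Omp and Cnga2, and Adcy3 is also among the mOSN markers used above. Their rise towards mOSNs was thus largely set by the labels and is no independent result about genes with an Ebf site. Of the 4, Cnga2 had a CCCNNGGG in the window searched, Adcy3 had none, and Omp and Gnal had no entry in the promoter table. In INPs the mean levels of Omp (1.87), Adcy3 (0.393) and Cnga2 (0.161) were below those in blood cells (3.30, 0.494 and 0.287). No fold is given for their first step, and the source of these UMIs was not tested. Over the 4 genes the median log2 change was 2.21 from iOSN1 to iOSN2 and 0.69 from iOSN2 to mOSN. Adcy3 rose by 2.01 ± 0.09 from iOSN2 to mOSN. In the step from iOSN1 to iOSN2 these 4 and Ebf4 rose, while Ebf1, Ebf2 and Ebf3 fell. From GBC to INP 2 of the 4, Adcy3 and Gnal, were called higher, beside 19.6% of all genes, and the Adcy3 level was below that of blood cells on both sides of this step.

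Genes whose course over the 20 sums of stage and mouse was most like that of each regulator were found by Pearson's r of log2(CPM + 1), over sums that share 4 libraries. For Ebf1 they were Klf7 (r = 0.976), Ina (0.976) and Cmtm4 (0.974), and for Ebf2 Eif4e3 (0.986), Elavl3 (0.979) and Ebf1 (0.971). Ebf3 was most like Eif4e3 (0.976), Ssbp2 (0.973) and Adam19 (0.972). Ebf4 was most like Map1lc3a (0.985), Rfx3 (0.984) and Arl13b (0.982). Lhx2 was most like Zhx1 (0.983), Znrf1 (0.974) and Bcl2l1 (0.965), Ldb1 like Tanc2 (0.963), Rad54l2 (0.958) and Spin1 (0.955), and Emx2 like Arl14epl (0.979), Nrg1 (0.976) and Dpysl2 (0.967).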

How the data were processed

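The authors aligned reads with Cell Ranger 6.0.1 to GRCm38, using an Ensembl gene annotation in which the 3′ untranslated regions of receptor genes were annotated anew. They deposited raw UMI counts per gene and barcode. The deposited merged counts differed from the per-mouse matrices in 0 of 55511 genes. Types, OSN clusters and receptor identities are the deposited ones, except that immune and blood cells have no type in the authors' filtered clustering. For these, the labels of the unfiltered clustering that begin with Immune or Blood were joined into 1 group each. Counts were summed per mouse and group of cells and tested in edgeR 4.0.16 (R 4.3.3; TMM, filterByExpr, quasi-likelihood test, Benjamini-Hochberg at 0.05), leaving out 1430 receptor genes. The mouse was a block because sums with the same number come from 1 animal and library (mean correlation of their deviations 0.203 over stages and 0.352 over classes). Alternatives were no block, DESeq2 1.42.0 or its size factors, no filter, each mouse left out, thinning to 3000 UMIs, cells with at least 2000 genes, and leaving out the 4% of barcodes with the highest Scrublet scores (scanpy 1.11.5), since its automatic threshold marked 1 to 37 barcodes per mouse. Of the barcode sequences 54 occurred in more than 1 library. Intervals between mice cover biological and technical spread together. The members, gene lists and markers were chosen with earlier results of these data known. Named genes were all 7 members, at most 4 of each list with the largest change among those called from INP to iOSN1 or iOSN2 to mOSN, the 3 most alike genes, and the highest and lowest population of each member called. The third-highest Ebf1 population, the second-highest populations and Zfp423 were named after their values were seen. One gene of the fixed lists is counted with its list and not reported here by name.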

Additional observations from a re-analysis of the deposited data

Results flagged for a closer look

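In 105 groups of 4 mice (7 genes in 5 stages and 10 OSN clusters), 10 had 1 mouse far from the other 3, where the gap to the nearest mouse, as a share of the whole range, was above Dixon's 95% critical value. Chance flags about 1 in 20 groups. Lhx2 in GBCs was 2.78 in mouse 4 and 5.72 to 6.21 in the others, Ldb1 in INPs was 2.67 in mouse 2 and 1.64 to 1.76 in the others, and Emx2 in INPs was 2.78 in mouse 4 and 2.99 to 3.03 in the others. Emx2 in iOSN1 was 2.70 in mouse 2 and 2.07 to 2.17 in the others. Among OSN clusters, Ebf2 was 7.22 in Cd36+ D. of mouse 4 (others 5.82 to 5.97) and 8.10 in Cd55+ D. of mouse 3 (others 6.48 to 6.73), where Emx2 was also high at 1.79 (others 1.24 to 1.34). Lhx2 was 4.88 in Ventral of mouse 4 (others 5.12 to 5.15) and 4.16 in Cd36+ V. of mouse 1 (others 4.71 to 4.82), and Ldb1 was 0.471 in Dlg2+ V. of mouse 3 (others 0.376 to 0.378).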

How the results depend on the processing

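Of the 7 genes, 7 were called from GBC to INP and from iOSN1 to iOSN2, 6 from INP to iOSN1, 4 from iOSN2 to mOSN, 3 between classes, 4 between sides, 6 among clusters and 5 among populations. When low-count genes were kept, 7 were called from INP to iOSN1, 5 from iOSN2 to mOSN, 6 between sides, 7 among clusters and 4 among populations, and 4 also with populations of 3 or more neurons per mouse. With low-count genes kept, 5453 of 27854 genes were called from INP to iOSN1, 4994 from iOSN2 to mOSN and 3156 of 24143 between sides. From iOSN2 to mOSN the count of members was 2 in DESeq2 (3938 genes in all), 2 in cells with at least 2000 genes (4359) and 2 to 4 with a mouse left out (3936 to 4110). Between classes it was 1 without the mouse block, 0 in DESeq2 (3 at an unadjusted p under 0.05), 1 against dorsal class II neurons and 1 to 3 with a mouse left out (1601 to 1823 genes in all), and between sides 1 without the block. After thinning it was 6 from GBC to INP, 3 from iOSN2 to mOSN, 2 between classes, 3 between sides and 3 among populations, where Ebf4 and Emx2 did not pass the filter. The block changed no other call of these 7 genes than those given with the results. Reversed signs were found between classes, each in a value that did not pass in that setting: with no filter for Ebf2 (-0.0193), Lhx2 (-0.0335) and Emx2 (-0.0298), against dorsal class II neurons for Ebf4 (-0.0402), and with a mouse left out for Ebf2 (-0.0028 to 0.0388), Lhx2 (-0.0224 to 0.0315) and Emx2 (-0.0313 to 0.0801). The mean levels of Ebf2, Lhx2 and Emx2 were 6.11, 4.73 and 0.891 in class I neurons. In class II neurons they were 6.29, 4.89 and 0.924. The cause of the reversed signs was not tested. Calls over all genes fell from 2196 to 1081 between classes and from 3384 to 1550 between sides without the block, to 1018 and 1525 in DESeq2, and to 494 against dorsal class II neurons. Thinning lowered them to 2493 of 5352 (GBC to INP), 3063 of 5446 (INP to iOSN1), 2989 of 4790 (iOSN2 to mOSN), 1171 between classes, 2160 between sides, 2574 of 4149 among clusters and 382 of 858 among populations, where no filter gave 1498 of 19309 tested. The thinned fits tested 9198 genes along the stages, 10365 between classes, 10500 between sides, 6566 among clusters and 962 among populations. Their calls are thus not over the same genes as those of the main fits. GBCs and INPs are limited by few cells (24 to 86 and 38 to 100 per mouse), and Ebf4 and Ldb1 by few UMIs.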
